A study of Mus musculus with 9 samples.

Results

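The genes described here are 39 mitotic cell cycle genes of the class driven by MYBL2 with the MuvB complex and FOXM1, among 21887 protein-coding genes of the RefSeq annotation on the autosomes and sex chromosomes. They were listed by name and not ranked by a value measured here, but the list was chosen with earlier results of these data known. All 39 were found in the annotation. For each gene, peaks of open chromatin were counted within 1 kb of either gene end and within 50 kb of the gene. The data are ATAC-seq peak lists, 1 per library, from the mouse embryonic stem cell line E14 in its TOT2N variant. There were 3 libraries each of 3 lines: the parental cells without a construct (WT), cells with a stably integrated TetR construct, and cells with a stably integrated TetR-MYBTA construct. All 3 lines share the TOT2N background. The labels name no other allele, treatment or time. They do not say what MYBTA stands for, whether a construct line is 1 clone, or what drives the construct. Nor do they say that replicates were grown apart, so p-values here reflect the spread between these libraries only, which may be technical. A line with a construct and the clone or culture it came from cannot be told apart.

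Mitotic genes are switched off early in the cell cycle and on late. MuvB is a complex of LIN9, LIN37, LIN52, LIN54 and RBBP4 that sits at their promoters. With the pocket proteins p130 or p107 and the factors E2F4 and DP1 it forms the repressive DREAM complex. With MYBL2 (B-Myb) and later FOXM1 it activates the same promoters. LIN54 binds the cell cycle genes homology region (CHR), most often the letters TTTGAA or TTTAAA close to the start of transcription. Nearby CCAAT boxes are bound by the factor NF-Y. MYBL2 is a relative of MYB, the factor named in the title of the series. Embryonic stem cells divide fast and express these genes strongly.

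Promoter sequences from 250 bases before to 50 after the gene start were found for 29 of the 39 genes in the RefSeq table (GRCm38.p6, the mm10 coordinates of the peaks). The stretch from 150 bases before the start to the 30 bases from the start on is printed for a few of them, 5′ to 3′ on the gene's strand. Capitals mark CHR letters (TTTGAA or TTTAAA) and CCAAT boxes, each on either strand, so that TTCAAA and ATTGG are the same motifs read from the other strand. The first set shows the 4 genes with a printed promoter whose end peak stood highest in the lists, by the place defined further on.
Hmmr, chr11:40733408-40733587, minus strand: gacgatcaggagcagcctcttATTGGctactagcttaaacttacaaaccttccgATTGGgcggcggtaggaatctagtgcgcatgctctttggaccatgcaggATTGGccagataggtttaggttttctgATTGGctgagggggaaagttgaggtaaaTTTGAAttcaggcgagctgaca
Cenpf, chr1:189688057-189688236, minus strand: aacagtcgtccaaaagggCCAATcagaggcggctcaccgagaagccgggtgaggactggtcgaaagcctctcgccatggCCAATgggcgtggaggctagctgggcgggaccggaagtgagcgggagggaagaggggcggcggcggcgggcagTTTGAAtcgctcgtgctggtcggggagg
Ect2, chr3:27153849-27154028, minus strand: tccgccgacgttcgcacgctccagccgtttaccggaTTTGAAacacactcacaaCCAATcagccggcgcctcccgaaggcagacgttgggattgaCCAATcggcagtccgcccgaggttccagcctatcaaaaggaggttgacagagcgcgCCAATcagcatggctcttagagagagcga
Ttk, chr9:83834539-83834718, plus strand: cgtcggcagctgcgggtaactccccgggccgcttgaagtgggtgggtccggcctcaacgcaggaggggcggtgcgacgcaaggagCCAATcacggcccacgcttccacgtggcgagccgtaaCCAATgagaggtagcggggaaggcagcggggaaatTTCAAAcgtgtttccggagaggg
The next set was chosen after the values were seen. It shows Top2a, whose start peak stood higher in TetR-MYBTA, followed by 3 genes whose start peak stood lower.
Top2a, chr11:99024160-99024339, minus strand: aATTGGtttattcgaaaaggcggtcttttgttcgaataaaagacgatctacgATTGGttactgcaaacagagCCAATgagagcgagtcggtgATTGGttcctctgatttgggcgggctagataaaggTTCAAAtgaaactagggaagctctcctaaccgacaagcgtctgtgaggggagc
Ccnb2, chr9:70421525-70421704, minus strand: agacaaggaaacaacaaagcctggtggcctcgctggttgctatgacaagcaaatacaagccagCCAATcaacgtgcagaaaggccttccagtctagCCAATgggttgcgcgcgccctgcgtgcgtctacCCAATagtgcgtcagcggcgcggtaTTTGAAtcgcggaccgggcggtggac
Kif23, chr9:61946770-61946949, minus strand: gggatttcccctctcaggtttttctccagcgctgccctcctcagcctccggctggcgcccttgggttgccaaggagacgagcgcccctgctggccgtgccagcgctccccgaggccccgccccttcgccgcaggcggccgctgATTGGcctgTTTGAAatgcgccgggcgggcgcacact
Kif11, chr19:37376232-37376411, plus strand: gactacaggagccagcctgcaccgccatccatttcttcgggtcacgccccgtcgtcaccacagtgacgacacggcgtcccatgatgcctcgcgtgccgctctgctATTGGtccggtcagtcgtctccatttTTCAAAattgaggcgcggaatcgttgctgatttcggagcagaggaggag
The last pair, also chosen after the values were seen, has low places in the lists and no CHR letters anywhere in the window. Other genes without CHR letters stood high, as given below.
Cdc25b, chr2:131186798-131186977, plus strand: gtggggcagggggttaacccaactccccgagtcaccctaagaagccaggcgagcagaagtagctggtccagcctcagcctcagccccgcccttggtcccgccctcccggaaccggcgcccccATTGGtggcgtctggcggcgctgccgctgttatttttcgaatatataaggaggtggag
Melk, chr4:44300767-44300946, plus strand: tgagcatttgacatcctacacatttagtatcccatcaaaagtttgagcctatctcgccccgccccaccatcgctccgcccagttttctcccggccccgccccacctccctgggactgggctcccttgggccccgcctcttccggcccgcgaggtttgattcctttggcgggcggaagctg

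A CHR was found in 24 of the 29 windows (82.8%), against 25.5% of 17492 windows of protein-coding genes and 18.1% of the 7850 windows of genes with an end peak in all 9 libraries. TTTGAA alone was in 21 member windows (72.4%, against 16.5%). A CHR whose first letter lay within 50 bases of the start was in 21 (72.4%), against 6.84% of all windows. A CCAAT box was in 24 (82.8%, against 6827 of 17492), and both elements were in 21 (72.4%, against 10.3%). A CCAAT box 20 to 40 bases before a CHR, a spacing range set after the positions were seen, was in 15 member windows (51.7%) and in 1.56% of all windows. The class is known for these elements, so the counts describe the genes and are no test of the list. A MYB motif (CAACNG or TAACNG, either strand) was in 14 of the 29 (48.3%), near its share of 47.5% among all windows. An E2F motif (TTTCCCGC, TTTGGCGC or TTTCGCGC, either strand) was in 1 (3.45%, against 2.48%). The 5 windows without a CHR were those of Bub1, Cdc25b, Melk, Nek2 and Nusap1. Their mean places in the lists were 53.8, 49.2, 42.5, 96.1 and 90.8 in that order, so they were both low and high. A match is a run of letters and not a measured binding site.

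The peak centre nearest the gene start was read in each library, counting bases from the start with negative values upstream. Over the 28 member genes with a start peak in all 9 libraries, the median of these offsets was -62 bases, and 25 of the 28 (89.3%) had a median within 150 bases of the start. Among 7834 other genes with a start peak in all 9 libraries, the median was -45.5 bases and 71.5% lay within 150. These distances place the peaks over the stretch printed above. Prc1, a microtubule bundler of the central spindle, had a CCAAT box at -37 and a CHR at -5, and its peak centres ran from -63 to -34. Cdk1, the kinase that drives entry into mitosis, had CHR letters at -71 and -15 and peak centres from -110 to -18. Kif11, the motor that pushes spindle poles apart, had a CHR at -19 and centres from -140 to -45.5. Nusap1, a microtubule-stabilising protein, was an exception with centres 250 to 302 bases downstream of the listed start. Kif2c, a microtubule-depolymerising kinesin, had no peak within 1 kb of the start in the promoter table. Its end peak (chr4:117182505-117182744) lay at the outermost end of the annotated gene.

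**Figure D1:**
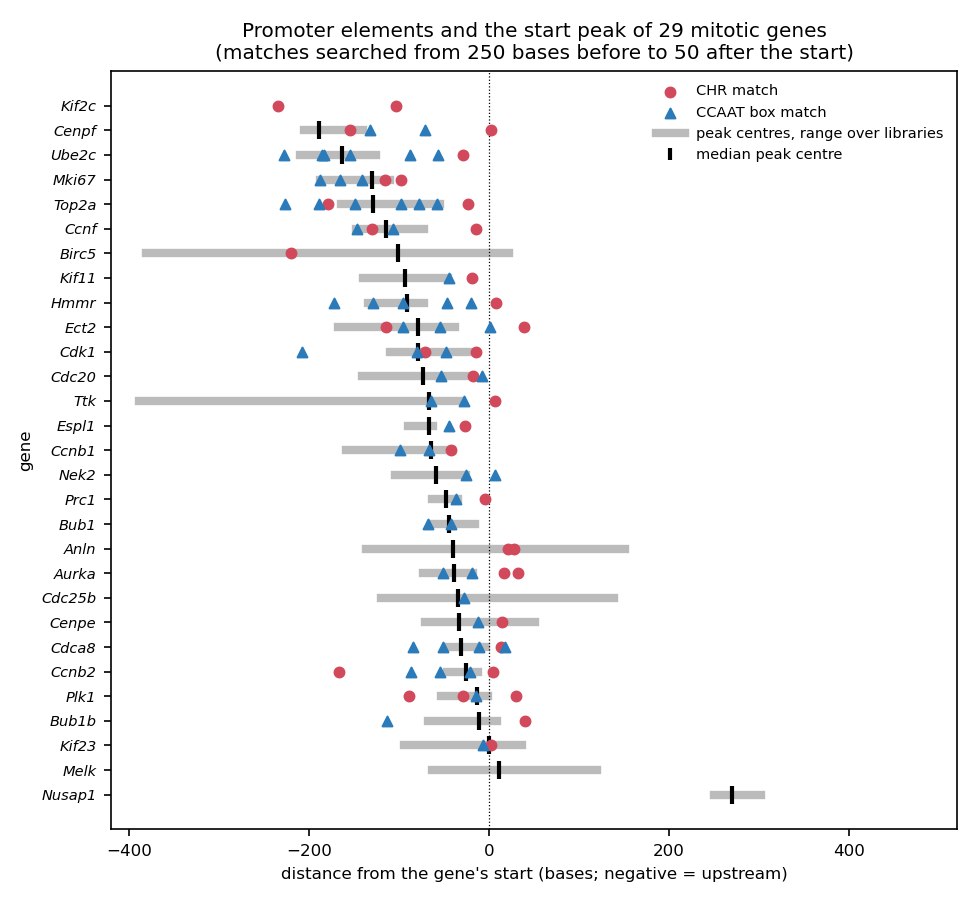
CHR matches (circles) and CCAAT box matches (triangles) of 29 mitotic genes by distance in bases from the gene start, with the range over libraries of the nearest peak centre (grey bar) and its median (black tick). The peak centres of 25 genes have a median within 150 bases of the start, beside the elements, and those of Nusap1 lie downstream.

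The 9 libraries held 45136 to 70230 peaks made from 16.4 M to 23.0 M tags, with 5.48% to 9.78% of tags in peaks. The shortest list and the lowest share of tags in peaks both belonged to TetR-MYBTA replicate 3. Among 10 marker genes of mouse embryonic stem cells, 5 had an end peak in all 9 libraries (Sox2, Klf4, Dppa5a, Tfcp2l1 and Fgf4) and 2 in none (Esrrb and Zfp42). Pou5f1 and Nanog had one in 2 and 4 libraries. Of 7 fibroblast markers, which would mark feeder cells, and 5 primitive endoderm markers, none had an end peak in all 9, and 3 of each list had one in no library. Among the fibroblast markers, Col1a1, Col1a2 and Dcn had one in 8 libraries and Thy1 in 7. Col3a1, Postn and Lum had one in none. End peaks in all 9 were found for 2 of 5 trophoblast, 2 of 5 neural and 3 of 6 blood progenitor markers. An end peak marks an open gene end and not expression, and the part of other cells in the results was not tested. Peaks were also spread unevenly over chromosomes: the share of a list's peaks on chromosome 11 was 1.28 times as high in TetR-MYBTA as in the other 6 libraries, on chromosome 1 it was 1.34 times as high, and on chromosome 19 it was 0.769 times as high. The part of chromosome content in the results below was not tested beyond the values within chromosomes given there.

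The ends of the mitotic genes were open in nearly every library. A peak within 1 kb of a gene end was present in all 9 libraries for 37 of the 39 genes, and no gene lacked one in every library. Over all protein-coding genes, 44.2% had an end peak in all 9 libraries and 37.5% in none. Of the 351 pairs of a gene and a library, 347 had a peak. The number of the 39 genes with an end peak was 39, 39 and 38 in WT, 39 in each TetR library, and 38, 39 and 37 in TetR-MYBTA. Over all genes the share was 54.5% to 56.7% in WT and TetR and 48.7% to 52.8% in TetR-MYBTA. At most 2 of the 39 genes lacked an end peak in any 1 library.

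**Figure D2:**
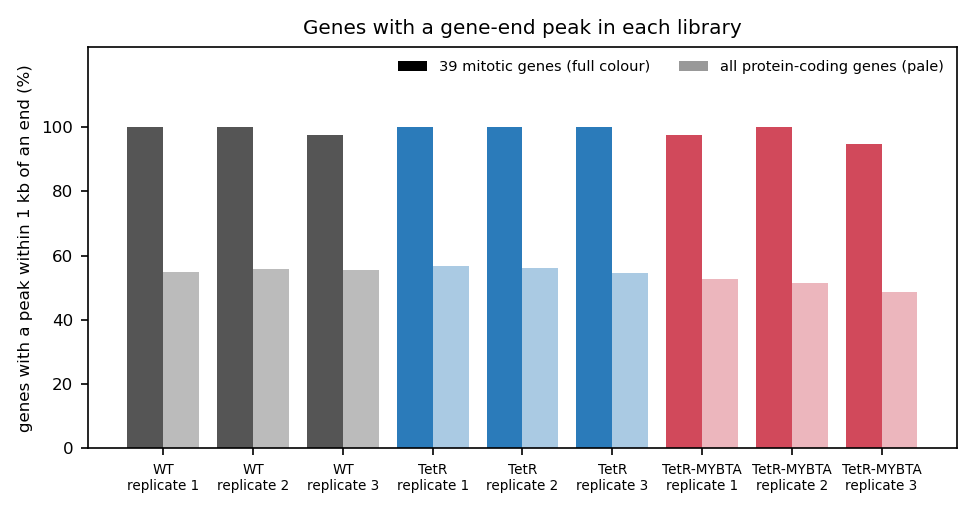
Percent of genes with a peak within 1 kb of either end, in each library, for the 39 mitotic genes (full colour) and all 21887 protein-coding genes (pale). The mitotic genes stand between 94.9% and 100%, and all genes between 48.7% and 56.7%.

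Both exceptions are mitotic kinases. Aurkb, the kinase of the chromosomal passenger complex, had an end peak (chr11:69045513-69045741) in WT replicates 1 and 2, in all 3 TetR libraries and in TetR-MYBTA replicate 2, which makes 6 of 9. Pbk, a mitotic kinase, had one in 8 of 9 and lacked it in TetR-MYBTA replicate 3. No gene had an end peak in every library of a line and in no library of the compared line or lines, in any of 4 comparisons (TetR-MYBTA against the other 6 libraries, against TetR and against WT, and TetR against WT). Without TetR-MYBTA replicate 2, Aurkb became the 1 gene with an end peak in every TetR library and in no TetR-MYBTA library. Over all genes, the share without an end peak in any TetR-MYBTA library and with one in every compared library was 0.557% against the other 6, 1.38% against TetR and 1.30% against WT. The share with the opposite pattern was 0.0731%, 0.196% and 0.164%. For TetR against WT, 0.393% had an end peak in every TetR library alone and 0.315% in every WT library alone. Exactly 1 end peak in every library was found for 23 genes. Bub1b, a kinase-like checkpoint protein, and Ect2, the exchange factor that turns on RhoA for cytokinesis, had 2 in every library. Of 28 genes with a start peak in all 9 libraries and a promoter entry, Bub1b was also the only one with a peak at the other end in all 9. For 12 genes an end lay within 1 kb of an end of another protein-coding gene, such as Cdc20 with Elovl1, Plk1 with Ern2, Aurka with Fam210b and Cstf1, Nusap1 with Oip5 and Hmmr with Nudcd2, and the peak there cannot be assigned to 1 of the genes.

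The end peaks of the 39 genes fell into 57 distinct regions. A peak was there in every library for 36 of them and in a single library for 7. Regions are peaks of different libraries that share at least 1 base. A second end region of Kif20a, a kinesin of the central spindle, was present in all 3 WT and all 3 TetR libraries and in none of TetR-MYBTA. It was the only member region of this kind, and 154 of 19076 gene-end regions (0.807%) shared the pattern. The main end region of Kif20a was present in all 9. Brd8 has an end within 1 kb of an end of Kif20a, and the second region lay outside the annotated Kif20a gene. That region cannot be assigned to Kif20a alone. A region at the far end of Cdk1 (chr10:69335621-69335923) was found in WT replicate 2 and the 3 TetR libraries and not in TetR-MYBTA or the other WT libraries. Foxm1, the transcription factor gene of the list, had an end peak in all 9 libraries, but its peak centres were scattered over 4 regions, none of them in all 9.

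How high a peak stood was taken from its row in the list, since the deposited score is 1 in every row. That rows run from more tags to fewer, within and between chromosomes, is an assumption that was not checked against tags. A place is a percentile, 100 for the first row of a list. On that assumption, a lower place can come from fewer tags at that site or from more at others, and these cannot be told apart here. The 6 genes with the highest mean place come first. Bora, the activator of Aurora A, ran from 98.8 to 99.8 over the 9 libraries (median 99.5) at the end it shares with Mzt1. Hmmr, a spindle-binding protein, ran from 97.7 to 99.6 (median 99.2). Cenpf, a kinetochore protein, ran from 98.1 to 99.5, and Ect2 from 98.2 to 99.2. Ttk, the kinase that starts checkpoint signalling, ran from 95.8 to 98.5, and Ccna2, cyclin A2, from 92.0 to 99.1. In all 6 of these genes every library, including TetR-MYBTA replicate 3, had the peak at a place of 92.0 or higher.

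The 6 genes with the lowest mean place among the 37 varied far more. Melk, a kinase of unsettled mitotic role, had places of 54.1, 48.1 and 34.0 in WT, 47.8, 47.1 and 43.0 in TetR, and 28.6, 50.2 and 29.3 in TetR-MYBTA, with overlap between the lines. Cdc25b, the phosphatase that starts Cdk1 activation, had 51.1, 70.8 and 73.4 in WT, 66.0, 53.6 and 55.4 in TetR, and 21.6, 32.9 and 17.8 in TetR-MYBTA, which lay below all other 6. The 53.6 of TetR replicate 2 belongs to a peak at the other gene end, and the start region there stood at 43.7. Bub1, a checkpoint kinase, ran from 29.6 to 74.6 and its lowest 2 values were TetR-MYBTA replicates 3 and 1. Foxm1 had 67.9, 69.4 and 56.9 in WT, 80.1, 83.7 and 73.0 in TetR, and 47.1, 58.7 and 32.1 in TetR-MYBTA. The first-listed Foxm1 peak was not the same region in every library, so these values mix both gene ends. Kif11 had 89.7, 79.1 and 83.5 in WT, 69.5, 78.6 and 65.5 in TetR, and 55.5, 23.1 and 58.8 in TetR-MYBTA, so that the lines did not overlap. Dlgap5, a spindle assembly protein, ran from 47.4 to 82.8, with TetR-MYBTA replicate 3 lowest. The remaining 25 genes with an end peak in all 9 libraries had mean places from 71.2 (Kif2c) to 96.8 (Ccnf). By role, an end peak in all 9 was found for all 7 cyclin and Cdk1 genes, all 3 genes of anaphase and ubiquitination, 5 of 6 mitotic kinases and their activator, 3 of 4 passenger complex genes, all 5 checkpoint and kinetochore genes, all 6 spindle motor and microtubule genes and all 5 genes of the central spindle and cytokinesis. Top2a, Mki67 and Foxm1 complete the list and had one in all 9 as well.

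**Figure D3:**
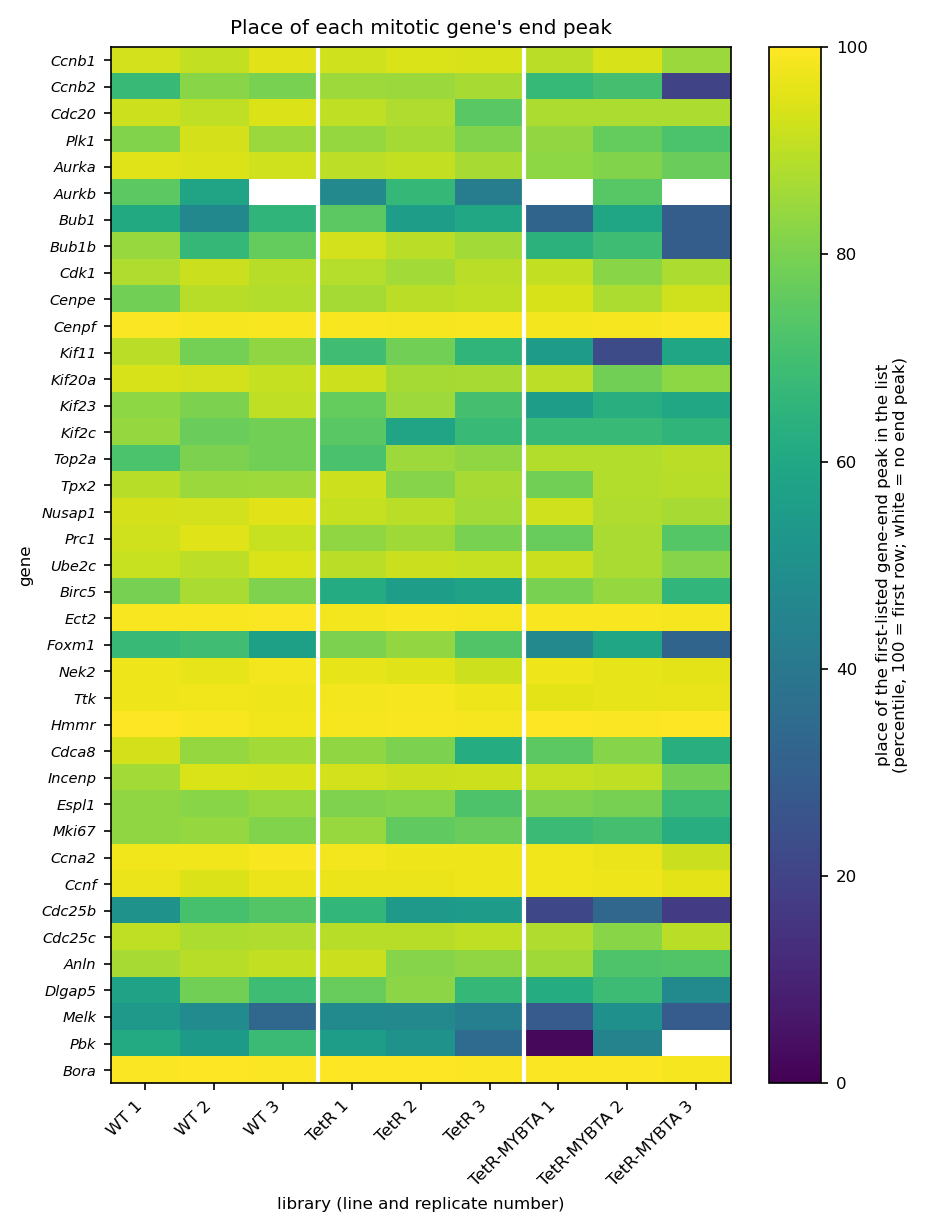
Place of the first-listed end peak of each of the 39 mitotic genes in each library, as a percentile of the list (colour, 100 = first row), with white where there is no end peak. Bora, Hmmr, Cenpf and Ect2 are bright in all 9 columns, and the white cells are 3 of Aurkb and 1 of Pbk.

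To compare lines at equal footing, places were ranked again among the 26020 regions with a peak in all 9 libraries, turned into normal scores (the matching quantiles of a standard normal distribution), and tested with limma across all of them. The median mean place was 73.5 for the 36 member regions, 63.7 for 7928 regions at gene ends and 47.3 for all 26020. Between TetR-MYBTA and the other 6 libraries, 2 member regions stood higher and 7 lower at an adjusted p under 0.05. Over all regions 13.1% were called higher and 11.9% lower, and over the regions at gene ends 4.98% and 12.2%. The median score difference was -0.18 over the member regions, -0.17 over the regions at gene ends and -0.04 over all. It was negative for 28 member regions and positive for 8. Without WT replicate 3 or TetR-MYBTA replicate 1, the 7 lower calls became 4. The 2 higher calls became 0 without WT replicate 3 or any 1 TetR-MYBTA library, and 1 without WT replicate 2 or TetR replicate 1 or 3. With 1 library left out, 9.29% to 11.7% of all regions were called higher and 8.75% to 9.64% lower. With the exact permutation test in place of limma, 0 member regions were called, as were 0% of all 26020 regions. Its smallest possible p is 0.0119, so after adjustment a call needs a large share of all regions at that value. The exact test therefore cannot decide on the limma calls.

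The largest difference lay at the far end of Bub1b (chr2:118641175-118641487), inside the gene near its end. Among the constant regions its places were 23.9, 33.5 and 51.5 in WT, 82.7, 75.5 and 71.8 in TetR, and 8.05, 25.1 and 2.93 in TetR-MYBTA. TetR stood highest, and 2 of the 3 TetR-MYBTA libraries stood below all others. The score was lower by limma in TetR-MYBTA than in the other 6, with a difference of -1.51 (SE 0.26, adjusted p = 0.00328), and lower than in TetR alone (-2.06, SE 0.30, adjusted p = 0.00153). It was also higher in TetR than in WT (1.10, SE 0.30, adjusted p = 0.0398), a call lost without any 1 library but WT replicate 3. At the start of Bub1b the difference from the other 6 was -0.58 (SE 0.25, limma adjusted p = 0.115). Leaving out any 1 library kept the far-end call of TetR-MYBTA against the other 6 (adjusted p 0.00305 to 0.0142).

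The other regions lower in TetR-MYBTA than in the other 6 were start regions. Cdc25b (chr2:131186732-131187189) was at 20.9, 40.3 and 47.4 in WT, 29.4, 10.4 and 25.2 in TetR, and 3.17, 7.64 and 6.55 in TetR-MYBTA, below every other library. By limma its score was -1.0 relative to the other 6 (SE 0.22, adjusted p = 0.00970). Aurka, the spindle pole kinase (chr2:172370490-172370743), was at 89.5, 87.8 and 84.8 in WT, 75.5, 78.2 and 73.0 in TetR, and 64.9, 62.4 and 63.9 in TetR-MYBTA, in 3 groups without overlap. The score difference was -0.57 (SE 0.13, limma adjusted p = 0.0112). Both calls held without any 1 library. Kif23, a motor of the central spindle, was at 66.7, 57.0 and 79.3 in WT, 46.1, 66.6 and 44.9 in TetR, and 23.6, 33.5 and 40.7 in TetR-MYBTA, again below all others. Its score differed by -0.73 (SE 0.20, limma adjusted p = 0.0244), and the call was lost without TetR-MYBTA replicate 1 or 2.

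Ccnb2, cyclin B2, was at 41.0, 60.8 and 58.9 in WT, 64.6, 65.8 and 72.8 in TetR, and 37.6, 44.6 and 7.79 in TetR-MYBTA, with overlap between WT and TetR-MYBTA. Its score difference was -0.90 (SE 0.26, limma adjusted p = 0.0327), and it was -0.50 without TetR-MYBTA replicate 3 (limma adjusted p = 0.0857). The call was also lost without WT replicate 2 or 3 or any 1 TetR library. Kif11 was at 79.1, 55.1 and 65.7 in WT, 34.6, 53.5 and 37.4 in TetR, and 22.7, 4.02 and 39.9 in TetR-MYBTA, where replicate 3 overlapped with TetR. The difference in score was -1.04 (SE 0.30, limma adjusted p = 0.0296), and it was -0.62 without TetR-MYBTA replicate 2 (limma adjusted p = 0.0950), with the call also lost without TetR-MYBTA replicate 1, TetR replicate 2 or WT replicate 1 or 3. Mki67, the proliferation antigen Ki-67 that coats mitotic chromosomes, was at 67.5, 64.9 and 61.2 in WT, 63.4, 48.0 and 55.1 in TetR, and 39.3, 44.7 and 44.3 in TetR-MYBTA, below all others. Its score differed by -0.44 (SE 0.14, limma adjusted p = 0.0437), and the call held only without TetR replicate 2 (range over all 9 left out, 0.0414 to 0.125).

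Higher in TetR-MYBTA were the start region of Top2a and the upstream region of Ect2. Top2a, the topoisomerase that untangles chromosomes (chr11:99024142-99024451), was at 47.1, 57.7 and 56.3 in WT, 37.2, 66.5 and 66.6 in TetR, and 75.4, 76.2 and 82.9 in TetR-MYBTA, above every other library. Its score was higher by 0.65 (SE 0.19, limma adjusted p = 0.0334). The call was lost without WT replicate 1 or 3 or any 1 TetR-MYBTA library (adjusted p up to 0.103). The Ect2 region (chr3:27155033-27155265) was at 86.4, 73.9 and 85.8 in WT, 83.3, 91.4 and 87.1 in TetR, and 92.2, 95.2 and 94.8 in TetR-MYBTA, again without overlap. Its score was higher by 0.52 (SE 0.16, limma adjusted p = 0.0396), and only leaving out WT replicate 1 or TetR replicate 2 kept the call (adjusted p up to 0.112). At the start of Ect2 the difference was 0.05 (SE 0.13, limma adjusted p = 0.779).

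Every one of these 9 regions lay on a chromosome whose share of peaks differed in the same direction. Most chromosomes had a lower share in TetR-MYBTA, so a lower region will mostly match its chromosome. How often all called regions match in this way is not given here, and a cause was not tested. The share in TetR-MYBTA relative to the other 6 was 1.28 on chromosome 11 (Top2a) and 1.06 on chromosome 3 (Ect2). It was 0.939 on chromosome 2 (Bub1b, Cdc25b, Aurka), 0.932 on chromosome 7 (Mki67), 0.868 on chromosome 9 (Kif23, Ccnb2) and 0.769 on chromosome 19 (Kif11). Ranked within its own chromosome, Top2a differed by 0.20 (limma adjusted p = 0.488). Ranked the same way, Bub1b at -1.46 (adjusted p = 0.00669), Cdc25b at -0.91 (adjusted p = 0.019) and Aurka at -0.49 (adjusted p = 0.0236) were still called lower by limma. Top2a and the other 5 were not called. The scores of these 5 were 0.48 for Ect2, -0.57 for Kif23, -0.75 for Ccnb2, -0.35 for Mki67 and -0.68 for Kif11, with limma adjusted p of 0.0554, 0.0797, 0.0802, 0.113 and 0.116 in that order. Within chromosomes, 0 member regions were called higher and 3 lower, where 10.7% and 9.35% of all regions were.

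**Figure D4:**
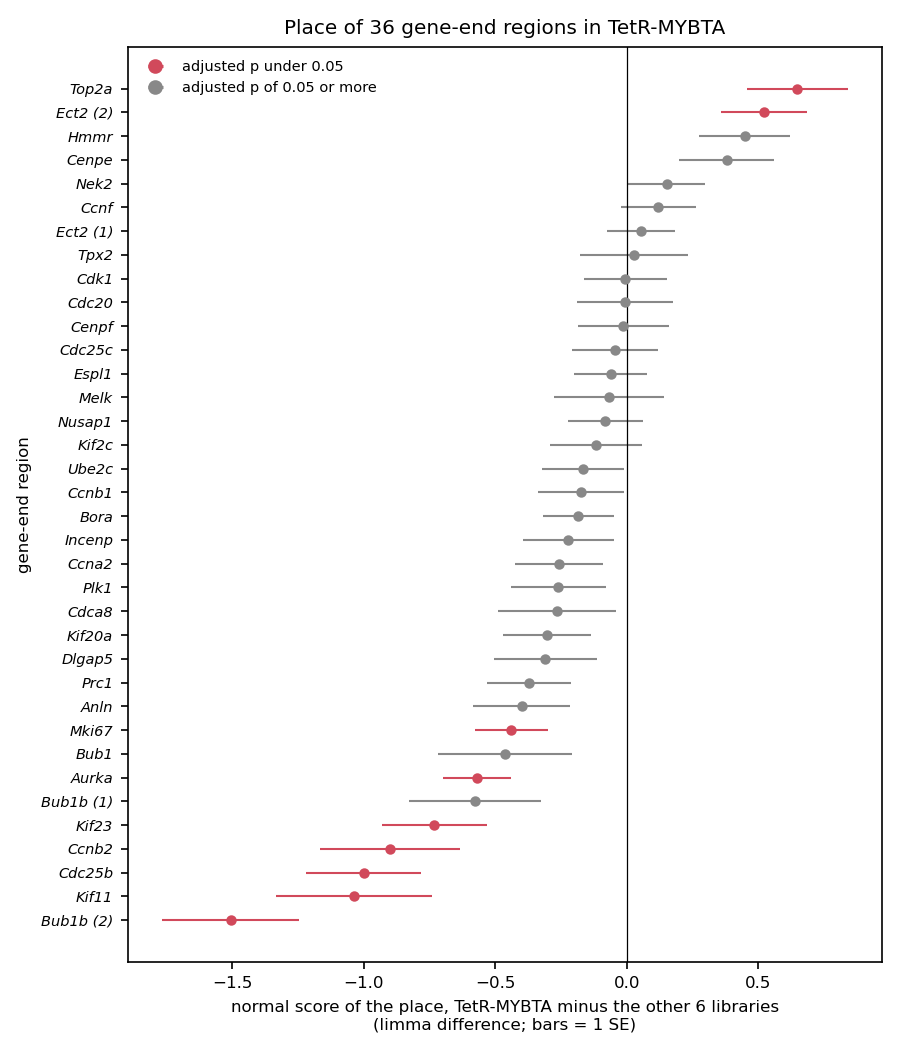
Difference in normal score of the place between TetR-MYBTA and the other 6 libraries for 36 member regions, as limma estimates with 1 SE, with regions of adjusted p under 0.05 in red. A number after a name counts the regions of that gene from the lower coordinate. The differences run from -1.51 at the far end of Bub1b to 0.65 at Top2a.

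The comparisons between single lines share libraries and are not independent of each other. Between TetR-MYBTA and TetR, limma called 0 member regions higher (background 11.7%) and 2 lower (background 10.2%), where 6.08% and 7.39% of regions at gene ends were. These were Bub1b at its far end and Ccnb2 (-1.09, SE 0.31, adjusted p = 0.0294), the latter lost without any 1 TetR library. The 2 became 1 without TetR replicate 1 or 3. Between TetR-MYBTA and WT it called 2 higher (background 11.3%), the same Top2a and Ect2 regions, and 7 lower (background 10.8%). At gene ends the shares were 3.43% and 15.2%. The 7 were Bub1b, Cdc25b, Aurka, Mki67, Kif23, Kif11 and Prc1. The lower calls numbered 4 without WT replicate 1 or 2 and 3 without WT replicate 3 or TetR-MYBTA replicate 1, and the higher ones were lost without any 1 of the 6 libraries. Of the 7 lower calls, Aurka and Cdc25b held without any 1 library. Between TetR and WT it called 1 higher (background 6.06%), the far end of Bub1b, and 1 lower (background 6.61%), Prc1 at -0.74 (SE 0.19, adjusted p = 0.0303). At gene ends the shares were 2.79% and 8.12%. The Prc1 call was lost without any 1 library of either line.

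Birc5, the survivin subunit of the passenger complex, and Foxm1 and Ttk lacked a region common to all 9 libraries. The peaks of Birc5 and Ttk were centred differently between libraries. At Foxm1 no region had a peak in every library, and the one at chr6:128375268-128375539 had none in TetR-MYBTA replicate 2. These genes were covered by a ranking of the first-listed end peak among the 9680 genes with an end peak in all 9, chosen after seeing the data. There Birc5 stood higher in TetR-MYBTA than in the other 6 (0.60, SE 0.16, limma adjusted p = 0.0343) and lower in TetR than in WT (-0.98, SE 0.19, limma adjusted p = 0.00860). Its places in whole lists were 79.4, 87.1 and 80.7 in WT, 61.6, 55.5 and 57.5 in TetR, and 79.7, 84.2 and 66.0 in TetR-MYBTA, so TetR stood below both other lines. The 66.0 of TetR-MYBTA replicate 3 belongs to a separate region (chr11:117848757-117848955). Birc5 lies on chromosome 11, whose share of peaks was 1.28 times as high in TetR-MYBTA as in the other 6. This ranking was not repeated within chromosomes or with 1 library left out. The first-listed Foxm1 peak was higher in TetR than in WT (0.81, SE 0.21, limma adjusted p = 0.0264) and lower in TetR-MYBTA than in TetR (-0.87, SE 0.21, limma adjusted p = 0.0189). In all TetR libraries and TetR-MYBTA replicate 1 it lay at chr6:128375268-128375539. In all WT libraries and TetR-MYBTA replicates 2 and 3 it lay at the other gene end. These Foxm1 values therefore compare different sites and show no difference at a single peak. Against the other 6, 2 of 37 genes were higher (Top2a and Birc5) and 2 lower (Cdc25b and Aurka), where 7.94% and 4.64% of all 9680 were.

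Around the genes, TetR-MYBTA had fewer peaks, and its lists were also shorter on average, 53909 ± 7722 peaks against 62372 ± 5083 (SD, n = 3 and 6). Distinct peaks within 50 kb of a member numbered 241, 264 and 243 in WT, 270, 286 and 259 in TetR, and 233, 224 and 181 in TetR-MYBTA. All 3 TetR-MYBTA values lay below the other 6. As a share of each library's peaks they were 0.417% ± 0.00896 in WT, 0.420% ± 0.0307 in TetR and 0.395% ± 0.00543 in TetR-MYBTA (SD, n = 3 each), and there TetR-MYBTA overlapped with TetR. In lists shortened to the same length they were 202 to 211 in WT, 208 to 215 in TetR and 181 to 195 in TetR-MYBTA, again without overlap. The counts of 6 genes (15.4%) lay lower in every TetR-MYBTA library than in all other 6, against 11.7% of 20443 genes, and those of 0 genes lay higher, against 0.832%. Without TetR-MYBTA replicate 2 the first count was 11, beside 16.7% of all genes. Without TetR-MYBTA replicate 3 the second was 1, beside 2.71%. The mean was lower in TetR-MYBTA for 34 genes, equal for 1 and higher for 4, and it was lower for 75.3% of all genes tested. The median difference was -1.0 peak for the members and -0.833 for all genes.

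The 6 genes came from 5 roles. Cdk1 had 11, 12 and 10 peaks in WT, 12, 13 and 12 in TetR, and 7, 5 and 5 in TetR-MYBTA, which gave the most negative mean difference of the list, -6.0. Ccnf, a cyclin-like F-box protein, had 6, 6 and 5 in WT, 6 in each TetR library, and 4, 4 and 3 in TetR-MYBTA. Bub1b had 10, 8 and 8 in WT, 13, 11 and 9 in TetR, and 6, 6 and 4 in TetR-MYBTA. In each case no TetR-MYBTA library reached the lowest of the other 6. Cdc20, the activator of the anaphase-promoting complex, had 5, 4 and 5 in WT, 4, 5 and 5 in TetR, and 3, 3 and 2 in TetR-MYBTA. Incenp, the scaffold of the passenger complex, had 3, 5 and 4 in WT, 4, 4 and 3 in TetR, and 2, 1 and 1 in TetR-MYBTA. Dlgap5 had 8, 8 and 7 in WT, 7, 9 and 8 in TetR, and 6, 6 and 4 in TetR-MYBTA. Mean differences of the last 3 were between -2.5 and -2.0.

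By the exact permutation test (two-sided, 3 against 6 libraries, smallest possible p 0.0119), 9 members were lower at an unadjusted p under 0.05, where 18.9% of all genes were, and 0 were higher, where 1.77% were. Without TetR-MYBTA replicate 3 the 9 became 5. After Benjamini-Hochberg adjustment over the 20443 genes, 0 members and 0 genes in all passed 0.05, and the lowest adjusted p was 0.124 by this exact test. Hmmr had the most positive difference in mean, with 10, 11 and 12 in WT, 13, 12 and 12 in TetR, and 15, 16 and 12 in TetR-MYBTA. The difference was 2.67 peaks (exact permutation p = 0.0595, adjusted p = 0.239), and TetR-MYBTA replicate 3 overlapped with both WT and TetR. Hmmr lies on chromosome 11, whose share of peaks was higher in TetR-MYBTA.

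**Figure D5:**
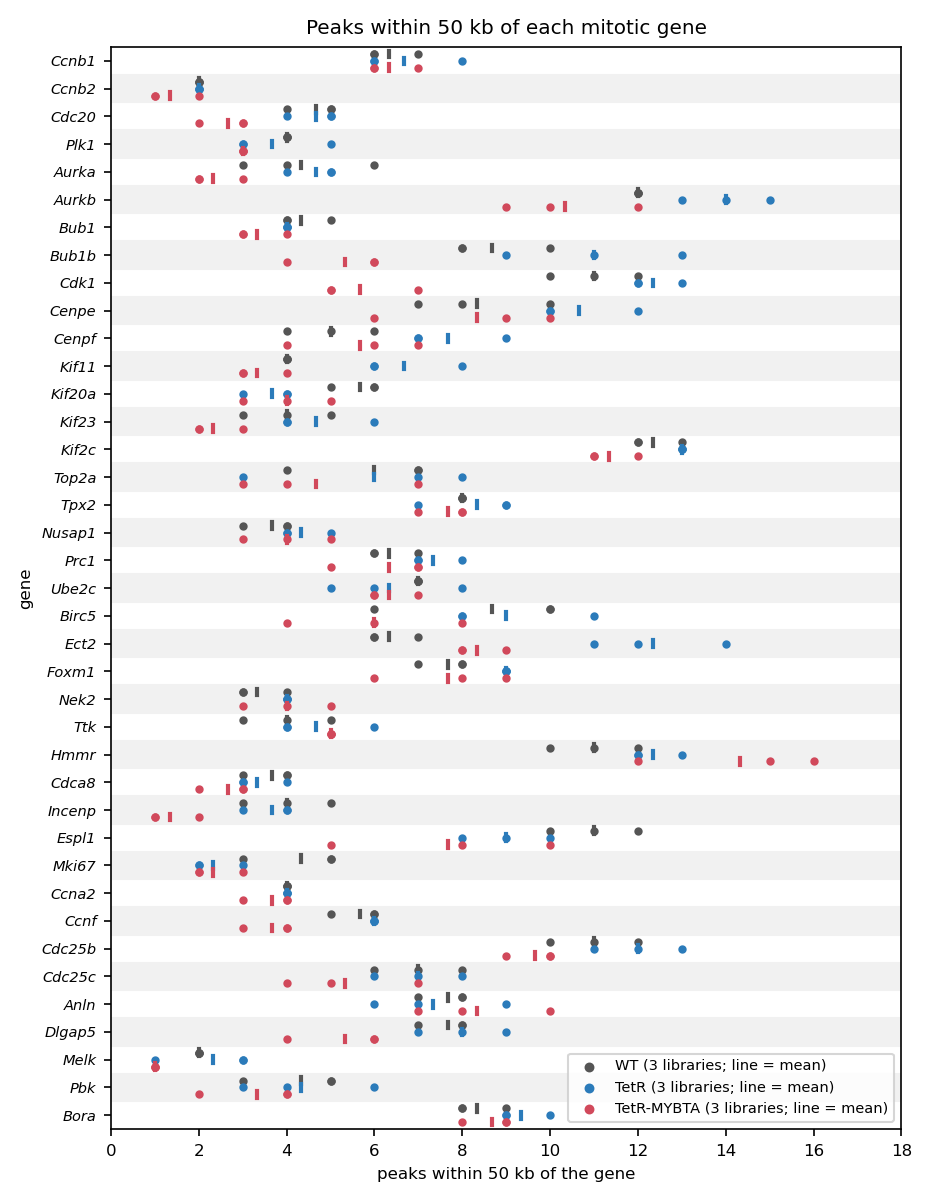
Peaks within 50 kb of each of the 39 mitotic genes, with 1 point per library and a vertical line at the mean of each line of cells (grey WT, blue TetR, red TetR-MYBTA). The red points of Cdk1 (7, 5 and 5) lie apart from the rest (10 to 13), and most genes overlap.

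Within single pairs of lines, 13 genes had lower counts in every TetR-MYBTA library than in every TetR library (background 25.1%) and 0 had higher ones (background 1.65%). Without TetR-MYBTA replicate 1 the 13 became 20, and without TetR replicate 3 or TetR-MYBTA replicate 3 the 0 became 1. Against WT, 8 were lower (background 19.1%) and 1 was higher (background 2.4%). The 8 became 15 without WT replicate 1 and 16 without TetR-MYBTA replicate 2. Between TetR and WT, 5 were higher (background 9.13%), namely Aurkb, Cenpf, Kif11, Ect2 and Foxm1, and 1 was lower (background 3.16%), Kif20a. The 5 became 10 without WT replicate 2 and 8 without TetR replicate 3. The 1 became 3 without WT replicate 1, 2 without TetR replicate 1 and 4 without TetR replicate 2. Ect2 stood apart in all 3 lines, with 6, 6 and 7 peaks in WT, 12, 11 and 14 in TetR, and 8, 8 and 9 in TetR-MYBTA. It was the 1 gene higher in TetR-MYBTA than in WT, which became 2 genes without WT replicate 2, WT replicate 3 or TetR-MYBTA replicate 3. With 3 libraries on each side, the smallest exact permutation p is 0.10. Shares over all genes with 1 library left out are not given here for single pairs of lines.

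The regulators of the class were mostly open as well. Of 12 genes for MYBL2, MuvB, E2F and DP proteins and pocket proteins, 10 had an end peak in all 9 libraries. E2f4 had one in 2 libraries (TetR replicates 1 and 3) and Rbl2, which encodes p130, in none. Counts within 50 kb lay lower in every TetR-MYBTA library for 2 of the 12 (Rbl1 and Rbl2) and higher for 0, beside 11.7% and 0.832% of all genes. Rbl2 had 11, 12 and 13 peaks in WT, 14, 11 and 12 in TetR, and 4, 6 and 5 in TetR-MYBTA, without overlap (unadjusted exact permutation p = 0.0119, the smallest possible). Mybl2 had 10, 9 and 9 in WT, 9 in each TetR library, and 9, 10 and 8 in TetR-MYBTA, and its lines overlapped. Of 33 G1/S genes, the class that E2F and DREAM control earlier in the cycle, 25 (75.8%, beside 44.2% of all genes) had an end peak in all 9 libraries and 6 in none (Mcm5, Cdt1, Orc1, Orc6, Gins3 and Rrm2). Their 50-kb counts lay lower in TetR-MYBTA for 7 of the 33 and higher for 0, beside the same 11.7% and 0.832%. Of the genes without an end peak, Mcm5, Cdt1, Orc6, Gins3 and Rbl2 all lie on chromosome 8, as does E2f4. On the same chromosome Tfdp1 had an end peak in all 9 libraries and Gins2 in 7. Chromosome 8 held 5.06% of the peaks in TetR-MYBTA and 5.12% in the other 6 libraries. The reason for the missing end peaks there was not tested. Myb and Mybl1, the other MYB family genes, had an end peak in all 9 libraries, and the 50-kb counts of neither were lower or higher without overlap. The Myb end region was at 44.8, 44.1 and 39.2 in WT, 30.2, 25.4 and 19.9 in TetR, and 16.8, 24.3 and 5.68 in TetR-MYBTA. Its place was lower by limma in TetR-MYBTA than in the other 6 (-0.65, SE 0.19, adjusted p = 0.0343) and than in WT (-0.90, SE 0.22, adjusted p = 0.0200). For Mybl1 the difference from the other 6 was -0.22 (SE 0.14, limma adjusted p = 0.259). Myb was not alone among these lists: against the other 6, limma also called Tfdp2 (-0.59, adjusted p = 0.0203) and Rfc4 (-0.60, adjusted p = 0.0329) lower. It called Mcm6 higher (0.48, adjusted p = 0.0335). Over all regions 11.9% were called lower and 13.1% higher. For genes outside the 39, values within chromosomes or with 1 library left out are not given here.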

How the data were processed

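Each library came with its own list of peaks, which the authors called with HOMER 4.11 without an input sample (per the file headers). The criteria in the headers were an FDR of 0.001, tag density 4 times that of the local 10 kb, and a Poisson p of 0.0001 for that excess. The submitters' processing notes list the build mm10 and, for reads, Bowtie2, FastQC, Picard, Trim Galore (0.6.10) and deepTools (3.5.5). The sources used here do not state a Tn5 shift. In the deposited lists the score is 1 in every row, and starts and ends are the authors' other values, base positions counted from 1 here. Row order followed HOMER's peak numbers within a chromosome (Spearman's rho at least 0.990 over 180 pairs of a chromosome and a library, across peaks), so the row served as the place. The order between chromosomes and its relation to tags were not checked. HOMER used 1 peak width per library, 194 to 209 bases, so nearby peaks of different libraries can fail to overlap. Tags per peak were not analysed here, so no count test was made.

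Peaks were counted around 21887 protein-coding genes of RefSeq GRCm38.p6, and 20443 with a peak within 50 kb were tested. Places were tested with limma 3.58.1 in R 4.3.3 (1 fit over 9 libraries with a term per line, Benjamini-Hochberg over 26020 regions), and 50-kb counts with a two-sided exact permutation test in Python 3.11.15. The genes, lists, rules and tests were chosen with earlier results of these data known. Values per library are given for genes whose 50-kb counts do not overlap between TetR-MYBTA and the other 6, for the 6 highest and 6 lowest mean places among genes with an end peak in all 9, and for regions past limma's test. Other genes named with values, apart from those of the gene lists, fall outside this rule and were chosen after their values were seen. Alternatives changed the distances, list length, ranking, test and libraries used.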

Additional observations from a re-analysis of the deposited data

How the results depend on the processing

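No member region called by limma changed sign in the alternatives run for its call. Member regions that were not called were left out of this check. For TetR against WT the balance of 50-kb counts, 5 higher and 1 lower, turned to 2 and 3 with lists of equal length and was even within 10 kb and as a share of peaks. Over all alternatives, 231 values stayed close (a count within 1.5 times, a mean within 1 SD) and 105 did not, and of the alternatives for single regions 140 kept the call and 110 lost it. The causes were not tested. Genes with an end peak averaged 37.3 in WT and 38 in TetR within 0.5 kb, where 1 gene had none in any library, and 37.7, 37 and 33 in WT, TetR and TetR-MYBTA in the upper 50% of each list. In that upper 50%, 1 gene had an end peak in no TetR-MYBTA library and in all other 6, 1 against TetR and 2 against WT. With at least 2 of 3 libraries against at most 1 of 3, it was 1 against TetR and 1 against WT. Leaving out 1 library gave 0 to 1 against TetR. Shares over all genes are not given here for these end-peak settings.

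For 50-kb counts of TetR-MYBTA against the other 6, higher genes numbered 1 with lists of equal length, 1 as a share of peaks and 0 to 1 leaving out 1 library. Over all genes the shares there were 3.12%, 4.47% and 0.885% to 2.71%. Lower genes numbered 5 (12.8%) with lists of equal length and 7 (17.9%) as a share of peaks, beside 5.87% and 10.2% of all genes. They numbered 3 in the upper 50%, 2 within 10 kb and 6 to 11 leaving out 1. In these latter settings the shares over all genes were 8.51%, 4.99% and 12.1% to 20.3%, so the background moved with the setting. Against TetR, higher genes numbered 2 with equal length, 2 as a share and 0 to 1 leaving out 1, and lower genes 7 within 10 kb, 8 as a share and 13 to 20 leaving out 1. Against WT, higher genes numbered 3 with equal length, 3 as a share, 0 within 10 kb and 1 to 2 leaving out 1, and lower genes 5 with equal length, 3 within 10 kb and 8 to 16 leaving out 1. For TetR against WT, higher genes numbered 2 with equal length, 2 within 10 kb, 3 as a share and 5 to 10 leaving out 1, and lower genes 3, 2, 3 and 1 to 4. At an unadjusted exact p under 0.05, lower genes numbered 3 within 10 kb and 5 to 10 leaving out 1. Shares over all genes under these settings are not given here for the exact test and for single pairs of lines.

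For places of TetR-MYBTA against the other 6, higher regions numbered 0 within chromosomes, 1 with percentiles, 0 by the exact test and 0 to 2 leaving out 1, and lower regions 3 within chromosomes, 0 by the exact test, 2 among gene ends and 4 to 5 leaving out 1. Against TetR, higher regions numbered 1 with peaks merged over 200 bp and 1 among gene ends, and lower regions 1 within chromosomes and 1 to 3 leaving out 1. Against WT, higher regions numbered 0 within chromosomes, 0 with percentiles and 0 to 0 leaving out 1, and lower regions 2 within chromosomes, 4 among gene ends and 3 to 6 leaving out 1. For TetR against WT, higher regions numbered 2 among gene ends and 0 to 1 leaving out 1, and lower regions 0 within chromosomes, 3 with percentiles, 2 with merged peaks, 2 among gene ends and 0 to 0 leaving out 1. With 1 library left out, shares of all regions called higher and lower were 8.58% to 9.48% and 6.64% to 9.08% against TetR. Against WT they were 7.55% to 9.1% and 5.58% to 8.92%. For TetR against WT they were 2.73% to 3.15% and 2.66% to 3.37%.

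Same-numbered libraries of different lines did not deviate together in their places (9 correlations, -0.017 to 0.013). Places are ranks, so a shared depth or preparation cannot be seen in them, and the labels do not say whether the numbers pair libraries. With a replicate block, lower 50-kb counts numbered 10 against the other 6 and 15 against WT, and TetR against WT gave 9 higher and 3 lower. Of all genes, 18.7% were lower against the other 6 in that setting. With the replicate block, higher places numbered 1 against the other 6, 1 against WT and 0 for TetR against WT. Of all regions, 12.1%, 10.2% and 4.67% were higher in that order. Tag totals and list lengths overlapped between the lines, the share of tags in peaks was lower in every TetR-MYBTA library than in the other 6, and without tags per peak a difference in place has no counting error.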
